A study of Mus musculus with 68 samples.

Results

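The response of primary mouse embryonic fibroblasts (MEFs) to tunicamycin (TM) was measured by RNAseq in the F1 of C57BL/6J (B6) and WSB/EiJ (WSB), labelled F1_C57BL/6JxWSB/EiJ and named xWSB here. The members are all libraries whose labels name this cross: 6 of the 68 libraries in the study, 3 of cells exposed to 2 ug/ml of TM and 3 of control cells given 0.1% DMSO, each for 4 h. B6 is a classical inbred strain and WSB a wild-derived inbred strain, and the parents' own MEFs were treated alike, with 2 control and 2 TM libraries of B6 and 2 control and 3 TM libraries of WSB. MEFs of the other 4 F1 crosses, also treated alike, entered some fits and comparisons. They were B6 with 129S1Sv/ImJ (x129), CAST/EiJ (xCAST), NOD/ShiLtJ (xNOD) and NZO/H1LtJ (xNZO). B6 was the mother in every cross. No library carries an engineered allele. The cells of a genotype were a pool from female embryos of 1 litter, so the replicates were cultures of 1 pool, and cross, pool and culture cannot be told apart. P-values therefore measured the spread between these libraries and not that between litters.

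TM blocks N-linked glycosylation, and proteins that cannot fold pile up in the endoplasmic reticulum (ER). The unfolded protein response (UPR) senses this through 3 membrane proteins. Ire1 splices the mRNA of Xbp1, Perk (Eif2ak3) slows translation and lets Atf4 and then Ddit3 (CHOP) be made, and Atf6 is cut and enters the nucleus. Xbp1 and Atf6 raise chaperones and the machinery of ER-associated degradation (ERAD), while Atf4 and CHOP raise genes of amino acid supply, stress feedback and cell death. The sensors also feed into NF-kB, a family of transcription factors that drives chemokines and cytokines.

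A deposited value is the number of reads on a gene over the scaled size of the library. It is not divided by gene length, so values were compared between libraries and not between genes. Reads on genes numbered 6442976 to 14858403 in the 6 xWSB libraries (median 11848886), the values of a library summed to between 806624.2 and 869411 over genes, and 1 read was worth between 0.0566 and 0.125. All 13 fibroblast markers were listed, with a summed value of 18346.6 to 21930.6 in controls and 16110.3 to 27608.7 in TM libraries. Of the 10 myeloid markers 4 were in the tables, with sums of 9.28 to 14.2 in controls and 6 to 11 in TM libraries. Muscle markers (3 of 5) summed to between 38.4 and 77.6, epithelial markers (4 of 6) to between 3.89 and 10.1, and endothelial markers (6 of 6) to between 0.83 and 3.34. All 4 Y-linked genes were listed in xWSB, with sums of 14.1 to 26.1, next to 72.4 to 292.0 for Xist, the RNA of the inactive X chromosome, whereas the study's methods name female embryos.

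Replicate 1 stood apart from replicates 2 and 3 in both treatments. The deviation of control replicate 1 from the mean of its group had an SD over genes of 0.42 on the log2 scale and ran against transcript length (Spearman's rho of -0.68 over 10587 genes, as a description). In TM replicate 1 the SD was 0.4 and rho -0.4, while in the other 4 libraries the SD was 0.17 to 0.31 and rho 0.26 to 0.55. Of 10 bins of equal gene number, the one of the shortest transcripts had a median of 1158 bases, and there control replicate 1 lay 0.48 above the group mean. In the bin of the longest, with a median of 8457 bases, its deviation was -0.5. Deviations from the mean of a group cancel out, so opposite signs among its libraries are built in. Trends with GC content differed within replicate numbers, with a rho of 0.45 in control replicate 1 and -0.24 in TM replicate 1. For replicate 2 they were 0.04 and 0.22, and for replicate 3 -0.63 and 0.19. Same-numbered control and TM libraries deviated together (r of 0.34, 0.31 and 0.18), although control replicate 2 also ran with TM replicate 3 (r of 0.41), and the response was taken within replicate numbers.

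**Figure D1:**
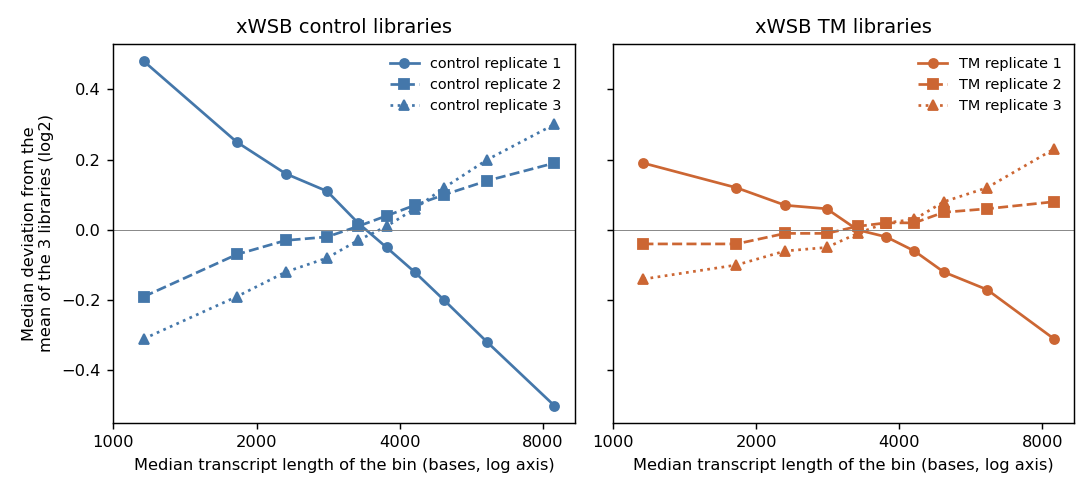
Median deviation of each xWSB library from the mean of its 3 libraries (log2, vertical axis) in 10 bins of genes ordered by transcript length (median length in bases, log axis), controls on the left and TM on the right. Replicate 1 went from 0.48 to -0.5 in controls and from 0.19 to -0.31 with TM. Replicates 2 and 3 ran the other way, which is partly built into deviations from a shared mean.

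Most of the 10 genes that passed the main test for a rise in xWSB belong to the core UPR. The threshold was 1.5 fold with an adjusted p below 0.01 (limma on log2(value + 0.1), replicate number as a block, Benjamini-Hochberg adjustment over 12413 genes), and 10 genes rose, which is 0.0806% of the genes tested. They were Herpud1, Gadd45a, Cass4, Ddit3, Sdf2l1, Hspa5, Atf3, Trib3, Nfil3 and Syvn1. None fell (0%), where 1137 genes were lower at an unadjusted p below 0.05 and edgeR with the block also called 0. The number called depended on the libraries and on the block. Without replicate 1, whose libraries deviated most, 1067 genes were induced and 905 lowered, and without the block 23 and 2. The counts also rose without replicate 2, to 40 and 8, and without replicate 3, to 116 and 42. These fits rest on fewer libraries still, and the cause of the rise was not tested. The main fit on 6 libraries has 2 residual degrees of freedom. A fit over all 28 F1 libraries, which shares the spread of the other 4 crosses, has 8. For the same response it called 277 genes higher (2.23%) and 141 lower (1.14%), and genes called by that fit alone are named as such. Of these 277 genes, 15 were in the list of ER chaperones and folding enzymes and 15 in that of ATF4 and CHOP targets.

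Herpud1 (ENSMUSG00000031770), which helps to assemble the ERAD complex, had the largest rise of the 10. Its values were 58.3, 60.7 and 47.8 in control replicates 1 to 3, and 965.1, 830.4 and 717.5 with TM. The groups were far apart, with a log2 change of 3.91 (SE 0.14, adjusted p = 8.42e-04 by limma). Syvn1, the ubiquitin ligase of ERAD, stood at 84, 85.2 and 73.9 in controls and at 327.1, 318.8 and 254.8 with TM, a log2 change of 1.88 (SE 0.14, limma adjusted p = 0.00823).

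Hspa5 (BiP, ENSMUSG00000026864), the main Hsp70 chaperone of the ER lumen, was already at 816.3, 812.7 and 933.7 in controls. It reached 5060, 5845 and 6190 with TM, a log2 change of 2.74 (SE 0.14, limma adjusted p = 0.0035). Replicate 1 was the lowest of the TM libraries, and the groups lay far apart. Sdf2l1, a partner of the ER chaperones, went from 14.6, 11.6 and 9.91 to 100.4, 97.4 and 101.4, so that the 3 TM values were closer to each other than the control values (log2 change 3.06, SE 0.17, limma adjusted p = 0.0039).

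Ddit3 encodes CHOP, the transcription factor tied to cell death under lasting stress. Its control values were 121.4, 72.5 and 68.4, with replicate 1 the highest, and its TM values were 715.6, 802.8 and 778.2 (log2 change 3.18, SE 0.22, limma adjusted p = 0.00599). Atf3, a factor of the same pathway, had controls of 5.81, 5.64 and 6.9 and TM values of 32.2, 40.7 and 46.4, with a log2 change of 2.67. Trib3 encodes a pseudokinase that restrains Atf4 and CHOP, and Gadd45a acts in growth arrest and DNA repair. Trib3 rose from 34.1, 28.6 and 23 to 159.2, 155.2 and 145.8, a log2 change of 2.44. Gadd45a rose from 14.6, 10 and 9.41 to 118.8, 134.0 and 132.4, a log2 change of 3.51 (SE 0.2, limma adjusted p = 0.0039). The limma adjusted p was 0.00519 for Atf3 and for Trib3.

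Of the 10, 2 were in no UPR list. Nfil3, a basic leucine zipper factor, went from 26.8, 25.9 and 22.8 to 118.4, 117.1 and 112.0, a log2 change of 2.2 (SE 0.15, limma adjusted p = 0.00519). Cass4, a scaffold protein of focal adhesions, was low in controls, at 0.933, 2 and 1.25, and reached 13.6, 15.3 and 19.3, a log2 change of 3.48 (SE 0.26, limma adjusted p = 0.00853). All 10 were also called induced in B6 and in WSB, each strain fitted alone, against 5.04% and 2.85% of all genes tested there. Just outside the threshold lay the chaperones Hsp90b1 (limma adjusted p = 0.011), Creld2 and Pdia4 (both 0.0133), the ATF4 target Chac1 (0.0133), the NF-kB feedback gene Tnfaip3 (0.011), the cytokine Lif (0.0137) and, with a negative log2 change, Scara3 (0.0137).

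**Figure D2:**
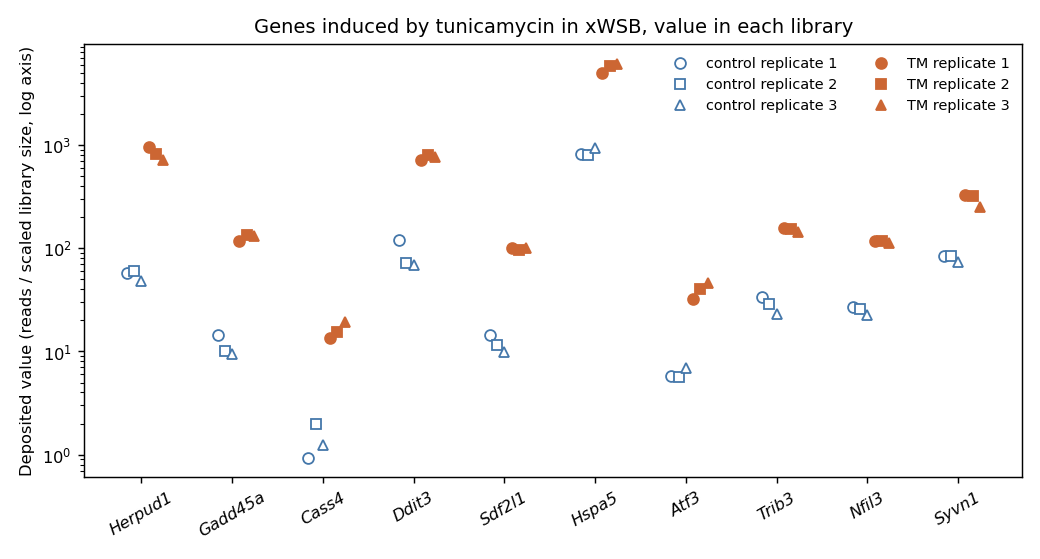
Value of the 10 induced genes in each xWSB library (reads over scaled library size, log axis), open symbols for controls and filled for TM, with circles, squares and triangles for replicates 1, 2 and 3. No TM value overlaps a control value, from Herpud1 with a log2 change of 3.91 on the left to Syvn1 with 1.88 on the right.

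Promoters of these genes were searched for sequences through which Atf6, Xbp1 and Atf4 are known to act. The window ran from 250 bases before to 50 bases after the RefSeq start (GRCm38.p6), which is B6 sequence, and both strands were searched. The motifs were the ER stress response element ERSE (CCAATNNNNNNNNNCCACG), its variant ERSE-II (ATTGG, any base, CCACG), the C/EBP-ATF response element CARE (TTGCATCA) bound by Atf4 and CHOP, and the UPR element UPRE (TGACGTG). The stretch printed for each gene spans its exact matches, in capitals, in the orientation of the gene.
Herpud1 (chr8:94386297-94386407, plus strand): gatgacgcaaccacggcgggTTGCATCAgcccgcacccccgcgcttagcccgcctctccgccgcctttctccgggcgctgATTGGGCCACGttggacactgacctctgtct
Hspa5 (chr2:34771913-34772063, plus strand): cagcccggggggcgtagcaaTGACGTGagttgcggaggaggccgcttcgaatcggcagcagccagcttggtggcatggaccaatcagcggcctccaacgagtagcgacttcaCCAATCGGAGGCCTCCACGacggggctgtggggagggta
Syvn1 (chr19:6046512-6046570, plus strand): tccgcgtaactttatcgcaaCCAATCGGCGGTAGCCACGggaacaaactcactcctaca
Atf3 (chr1:191183416-191183463, minus strand): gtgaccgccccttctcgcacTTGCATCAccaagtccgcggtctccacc
Herpud1 held CARE followed by ERSE-II, between bases -132 and -22 from the start. Hspa5 held UPRE followed by ERSE, Syvn1 held ERSE and Atf3 held CARE, and Trib3, Ddit3, Sdf2l1, Gadd45a, Nfil3 and Cass4 had no exact match of the 4 in the window. ERSE occurred in 0.13% of all 27025 promoters, ERSE-II in 0.037%, CARE in 0.929% and UPRE in 1.99%. Among the lists, ERSE was in 7 of 28 promoters of ER chaperones (25%), and CARE in 8 of 34 promoters of ATF4 and CHOP targets (23.5%) and in 4 of 12 of cytosolic tRNA synthetases (33.3%). A match is a string of letters and not a shown binding site.

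Of 34 ER chaperones and folding enzymes tested, 2 rose, 15 were called higher by the fit over 28 libraries and none lower by either, and the median log2 change was 0.56, against -0.02 over all genes. In 18 of the 34 all TM libraries lay above all controls, against 9.9% of all genes tested. Creld2, a folding factor, had controls of 48.6, 36 and 32.9 and TM values of 234.4, 370.7 and 397.7, with replicate 1 the smallest change of the 3 (log2 change 3.07, SE 0.27, limma adjusted p = 0.0133). The same order held for Hyou1, the nucleotide exchange factor of Hspa5, with controls of 193.4, 212.9 and 195.5 and TM values of 476.6, 740.2 and 928.8 (log2 change 1.78, limma adjusted p = 0.0335). Dnajb9, a Hsp40 co-chaperone and known target of Xbp1, ran the other way. Its TM values were 95.1, 57.4 and 46.7 over controls of 13.4, 14.4 and 18.9 (log2 change 2.03, SE 0.29, limma adjusted p = 0.0521). Hsp90b1, the Hsp90 of the ER, went from 693.3, 677.5 and 891.7 to 2311, 2718 and 2812 with a log2 change of 1.8. Among the other members called by the 28-library fit the log2 change was 0.63 for Txndc11, the smallest, and 1.95 for Ero1lb, an oxidase of the ER, with Pdia3 at 0.86, Calr at 0.87, Manf at 1.28, Pdia6 at 1.3, Dnajc3 at 1.44 and Pdia4 at 1.58.

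Of 30 ERAD genes 2 rose, Herpud1 and Syvn1, and 4 more were called higher by the fit over 28 libraries. These were Sel1l, the partner of Syvn1 (log2 change 1.19), Edem1, which extracts misfolded glycoproteins (1.03), and the selenoproteins Selenos (0.76) and Selenok (0.72). The median of the list was 0.17. Of the 45 genes of ER translocation and COPII transport, which carry proteins into and out of the ER, none was called by either fit, with a median of 0.11, and 17 were higher in all 3 pairs and 6 lower, against 17.1% and 21.3% of all genes.

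Of the 24 UPR sensors and transcription factors, Ddit3 and Atf3 rose, and Atf4, Xbp1, Cebpg and Eif2ak3 were called higher by the fit over 28 libraries. Atf4 had controls of 334.3, 277.5 and 263.6 and TM values of 629.9, 576.5 and 539.3, a log2 change of 1 (SE 0.14, limma adjusted p = 0.0455). Xbp1 went from 111.0, 107.0 and 110.8 to 234.3, 213.2 and 199.3, a log2 change of 0.97 (SE 0.14, limma adjusted p = 0.055). These values count all Xbp1 reads and do not separate its spliced form.

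Of 41 ATF4 and CHOP targets tested, 2 rose, 15 were called higher by the fit over 28 libraries and none lower, and the median log2 change was 0.61, with all TM libraries above all controls in 27. The feedback genes led. Chac1, which breaks down glutathione, went from 32.7, 31.1 and 24 to 155.0, 116.6 and 78.3, so replicate 1 was the highest and replicate 3 the lowest of the TM libraries (log2 change 1.95, SE 0.17, limma adjusted p = 0.0133). Ppp1r15a (GADD34), which restores translation, went from 130.9, 104.8 and 92.6 to 361.0, 372.9 and 390.7 (log2 change 1.79, limma adjusted p = 0.0169). Sesn2, a restraint on mTORC1, had a log2 change of 1.52. Amino acid supply followed with smaller changes, among them Slc3a2, the heavy chain of amino acid exchangers, at 1.18, Cth of cysteine synthesis at 1.37, Psph of serine synthesis at 0.91 and Mthfd2 of folate metabolism at 0.63. Cytosolic tRNA synthetases, a known set of Atf4 targets, had 7 of 20 members called higher by the fit over 28 libraries. Those called ran from 0.59 for Nars to 0.96 for Cars. The median of the list was 0.48, with Qars at -0.06, and none passed the fit on 6 libraries.

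**Figure D3:**
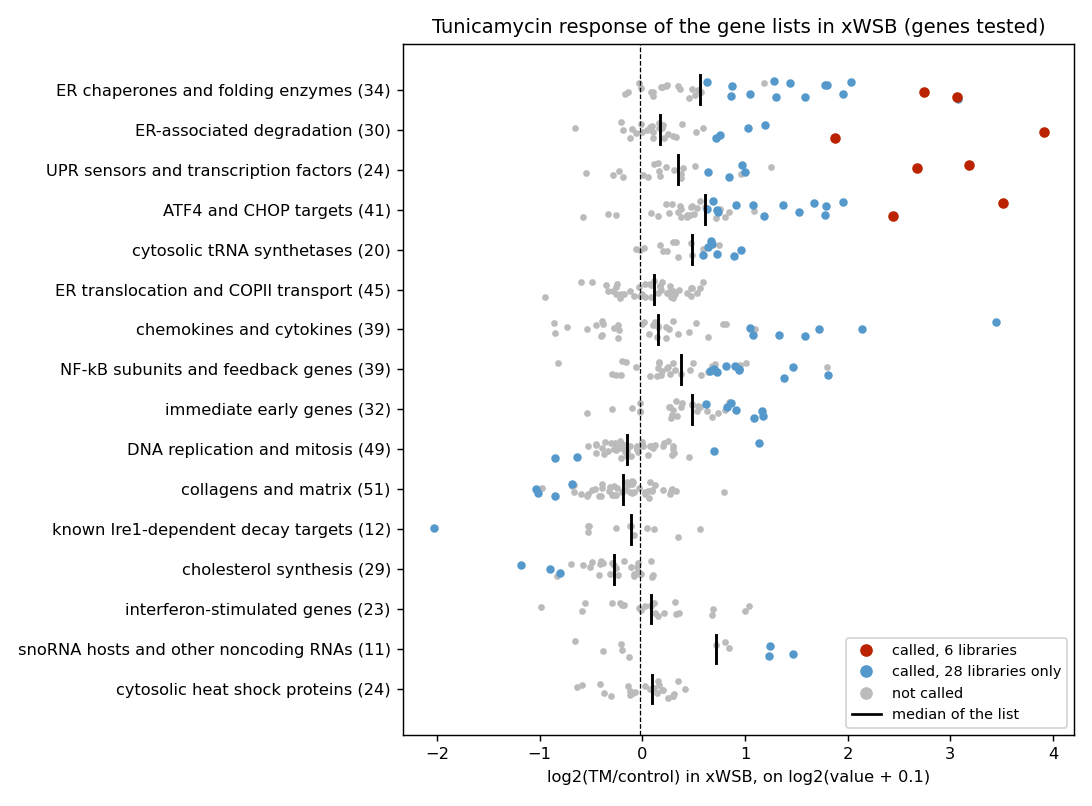
log2 response to TM of each tested gene in xWSB (horizontal axis), 1 line per gene list with the number tested in brackets, a bar at the list's median and a dashed line at the median of all genes, -0.02. Red points were called on the 6 xWSB libraries, blue points by the fit over 28 libraries only and grey points by neither. Chaperones (median 0.56) and ATF4 and CHOP targets (0.61) lie to the right, and the chemokine list, with a median of 0.15, spreads to both sides.

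No gene passed the test for a fall on the 6 xWSB libraries, and the values of the candidates are given from the fit over 28 libraries. Scara3, a scavenger receptor whose mRNA is a known substrate of Ire1-dependent decay, was the clearest. It had controls of 18, 21.5 and 17.8 and TM values of 4.09, 4.81 and 4.88, a log2 change of -2.03 (SE 0.15, adjusted p = 2.67e-06 in that limma fit, and 0.0137 on 6 libraries). It was the only one of the 12 decay targets tested that was called by either fit, and the median of the list was -0.11. Of 29 genes of cholesterol synthesis and its SREBP regulators, Dhcr7 (log2 change -1.18), Scd2 (-0.9) and Scd1 (-0.8) were called lower and none higher, with a median of -0.28. Among 51 collagens and matrix genes, Nid1 (-1.04), Timp3 (-1.02), Bgn (-0.85) and Fbln5 (-0.69) were called lower and none higher. Control replicate 1 was the lowest of the Nid1 controls, at 955.7 against 2042 and 2152, above TM values of 689.4, 878.6 and 791.7. The lowered genes with the largest changes, named after their values were seen, were Lrrc15 (-2.73), Car3 (-2.71), Gper1 (-2.3) and Ucn2 (-2.12), all low in controls, with Lrrc15 at 2.49, 2.82 and 2.13. Of the 141 genes called lower, 78 (55.3%) were also called lowered in B6 and 54 (38.3%) in WSB. Over all genes tested in those strains the shares were 3.22% and 4.2%. Of the 277 called higher, 207 (74.7%) were induced in B6 and 178 (64.3%) in WSB, against 5.04% and 2.85% of all genes tested there. All TM libraries lay below all controls for 8.59% of the genes tested in xWSB.

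Of 11 noncoding RNAs tested, hosts of small nucleolar RNAs and others, none passed on the 6 libraries. The hosts Zfas1 (log2 change 1.47), Snhg17 (1.24) and Snhg12 (1.23) were called higher by the fit over 28 libraries, while the log2 change was -0.66 for Snhg3, -0.38 for Snhg11 and -0.21 for Malat1, and the median was 0.72. Cytosolic heat shock proteins (24 genes, median 0.09) and interferon-stimulated genes (23 genes, median 0.08) had none called by either fit. Among 32 immediate early genes 7 were called higher by the fit over 28 libraries, with a median of 0.48, led by Ier2 (1.17), Egr1 (1.16) and Myc (1.09).

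Chemokines draw leukocytes to stressed tissue, and Ccl20, Cxcl1, Cxcl2 and Cxcl5 are known to be switched on by NF-kB. In xWSB the 39 chemokines and cytokines tested had a median log2 change of 0.15, and none rose on the 6 libraries. The fit over 28 libraries called 7 higher, Csf2, Cxcl2, Lif, Cxcl1, Pdgfb, Gdf15 and Ccl7, against 2.23% of all genes. In the parents the medians were 0.94 in B6, with 20 of 42 induced, and 0.49 in WSB, with 12 of 40 induced. Over all genes 639 were induced (5.04%) and 408 lowered (3.22%) in B6, and 361 (2.85%) and 532 (4.2%) in WSB. The parents were fitted without a block, so these counts are not on the same footing as those of xWSB.

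The responses of the 3 genotypes were then compared in 1 limma fit over 15 libraries, in which a difference was called at an adjusted p below 0.05 and at least 1.5 fold. Each response is a ratio within 1 table, and the parents share no library with xWSB. Against the mid-parent, the mean of the B6 and WSB responses on the log2 scale, 2 of 12083 genes had a smaller response in xWSB (0.0166%), Ccl20 and Cxcl1. None had a larger one (0%), with 514 larger and 616 smaller at an unadjusted p below 0.05. The same 2 were the genes smaller than in B6 (0.0166%), and none was larger than in B6 (0%). No gene differed between B6 and WSB (0% in either direction), where 668 were larger in B6 and 333 in WSB at an unadjusted p below 0.05. Only limma was run on these comparisons. Without WSB control replicate 3 there were 5 smaller and 14 larger genes than the mid-parent, and without xWSB replicate 1 there were 5 and 1.

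Ccl20 (ENSMUSG00000026166), the ligand of the receptor Ccr6, had the largest difference from the mid-parent of the 2. In B6 it went from 0.184 and 0.203 in controls to 14.8 and 12.4 with TM, and in WSB from 0.124 and 0.294 to 18.7, 13.3 and 15.1. In xWSB it went from 16.1, 9.77 and 9.91 to 28.8, 25.5 and 21.2. The TM values of xWSB did not overlap the controls, and the controls stood high. The response was 1.1 on the log2 scale in xWSB (SE 0.22), 5.54 in B6 (SE 0.28) and 5.72 in WSB (SE 0.25), and that of xWSB lay below the mid-parent (difference -4.53, SE 0.29, limma adjusted p = 3.75e-05). A read was worth 0.046 and 0.101 in the B6 controls and 0.124 and 0.147 in the WSB controls. The parental controls of Ccl20 thus rest on few reads. The size of the parental responses and of the difference therefore depends on the 0.1 added to each value.

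Cxcl1 (ENSMUSG00000029380), a ligand of Cxcr2 that recruits neutrophils, gave the same picture. It went from 0.644 and 0.506 to 13.4 and 14.8 in B6 and from 0.745 and 0.882 to 25.7, 17 and 17.7 in WSB. In xWSB the controls were 9.96, 6.81 and 8.03 and the TM values 37.1, 23.9 and 16.8. The xWSB response of 1.58 (SE 0.21) lay below the mid-parent (difference -2.85, SE 0.27, limma adjusted p = 0.00157), with 4.4 in B6 and 4.45 in WSB.

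In the chemokine and cytokine list 23 of 37 genes had a response below both parents and 3 above both, against 35.1% and 31.9% of all genes. Cxcl5 had a response of 0.26 in xWSB, 2.34 in B6 and 2.28 in WSB, and was called smaller than in WSB (difference -2.02, SE 0.36, limma adjusted p = 0.0488) but not than the mid-parent (adjusted p = 0.13). Its xWSB controls, at 18, 12.2 and 17.4, lay within those of the other crosses (1.19 to 32.6). Cxcl2 had a response of 2.14, against 5.96 in B6 and 4.93 in WSB, and was not called (-3.31 from the mid-parent, SE 0.59, limma adjusted p = 0.149). Cxcl2 differed from Ccl20 and Cxcl1 in its levels. Its xWSB controls were low, at 0.104, 0.344 and 0.502, though controls of the other crosses reached at most 0.174. Its TM values reached only 1.56, 1.64 and 1.5, against 16 and 17.2 in B6. The xWSB values of Cxcl2 rest on 10 reads in the controls together and 73 with TM. The xWSB and parent tables were scaled separately, so levels across them are set side by side only. Ccl2 had a response of 0.12 in xWSB, with controls of 233.8, 163.1 and 171.7 and TM values of 487.7, 166.5 and 104.6, so that the replicates moved in opposite directions and the groups overlapped. In the parents the response of Ccl2 was 2.25 and 1.9 (-1.95 from the mid-parent, SE 0.4, limma adjusted p = 0.268).

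Other members of the list had larger responses or differed the other way. Inhba, a subunit of activin, and the growth factor Fgf2 were called larger in xWSB than in WSB, with responses of 0.1 and -0.24 in xWSB against -1.75 and -1.84 (limma adjusted p = 0.0406 and 0.0403). Lif, an Il6-family cytokine, went from 85.6, 77 and 81.4 to 262.7, 303.5 and 243.7, a response of 1.72 in xWSB against 2.47 and 2.54 in B6 and WSB. Csf2 (GM-CSF) went from 0.104, 0.206 and 0.251 to 4.81, 2.77 and 1.88, from 6 reads in all controls to 148 with TM, and both parents had it at 0 in every control library. With the spread taken from all 68 libraries of the study, in a fit with a mean for each genotype and treatment, 10 genes were smaller than the mid-parent and 1 larger. The 10 were Ccl20, Cxcl1, Cxcl2, Cxcl5, Lif, Derl3, Edn1, Nucb2, Dusp14 and Zfp57, and the larger one was Nfkbiz (0.75, adjusted p = 0.0255 in that limma fit).

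Of 39 NF-kB subunits and feedback genes tested, none rose on the 6 libraries, 10 were called higher by the fit over 28 libraries, and the median was 0.38, against 0.69 in B6 and 0.56 in WSB. The response was below both parents in 18 of 37 and above both in 8, against 35.1% and 31.9% of all genes. Bcl3 was at 0.27 and Birc3 at 0.18 in xWSB. Nfkbia (IkBa), which holds NF-kB in the cytosol, went from 41.5, 32.7 and 28.5 to 91.2, 97.4 and 93. Its response of 1.47 compares with 1.6 in B6 and 1.52 in WSB. Tnfaip3 (A20), a deubiquitinase that ends the signal, went from 28.8, 33.1 and 37 to 102.4, 125.8 and 119.9, a response of 1.81 against 1.89 and 1.53. Relb was at 1.38, 1.35 and 1.49 in xWSB, B6 and WSB. Nfkbiz, an atypical nuclear IkB, was called larger in xWSB than in WSB (0.94 against 0.13, limma adjusted p = 0.0488).

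**Figure D4:**
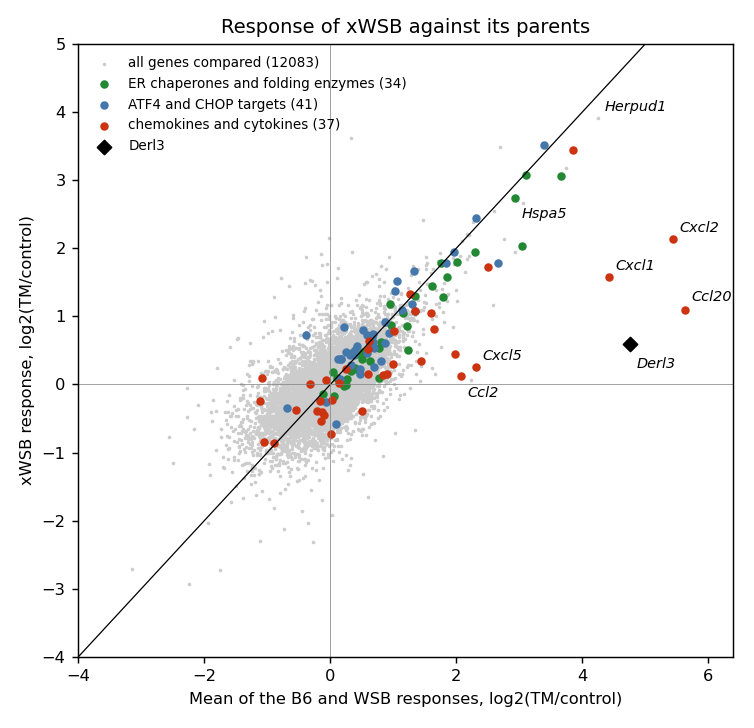
Response to TM of 12083 genes in xWSB (vertical axis, log2) against the mean of the B6 and WSB responses (horizontal axis, log2), with 3 gene lists coloured, a diamond for Derl3 and a line where the responses are equal. Herpud1 and Hspa5 lie near the line, while Ccl20 (1.1 in xWSB), Cxcl1 (1.58), Cxcl2 (2.14) and Derl3 (0.59) lie well to its right.

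None of the 34 chaperones was called against the mid-parent. The response was below both parents in 18 of the 34 chaperones and above both in 1, against 35.1% and 31.9% of all genes. In 30 ERAD genes these counts were 18 and 3. The median difference from the mid-parent was -0.18 for chaperones and -0.15 for ERAD genes. For ATF4 and CHOP targets the counts were 10 and 12 of 41, with a median of 0.04. Members of a list were measured in the same libraries and are not replicates of each other. Herpud1 had a response of 3.91 in xWSB, 3.96 in B6 and 4.54 in WSB, a difference from the mid-parent of -0.34 (SE 0.12, limma adjusted p = 0.476). For Hspa5 the responses were 2.74, 2.85 and 3.01 (difference -0.19, SE 0.12, limma adjusted p = 0.609). For Ddit3 they were 3.18, 3.21 and 4.26 (difference -0.56, SE 0.22, limma adjusted p = 0.503). None of these 3 differences was called, which does not show that the responses were equal.

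Derl3 (ENSMUSG00000009092), a derlin of the ERAD channel, was the only ERAD gene called in a comparison with a parent. It went from 0.414 and 0.608 to 8.49 and 10.7 in B6 and from 0.496 and 0 to 10.7, 11.3 and 11.6 in WSB. In xWSB the controls were 0.726, 1.03 and 1.25 and the TM values 2.14, 1.3 and 1.28, so the groups did not overlap but stayed close, on 32 and 73 reads. The response of 0.59 in xWSB (SE 0.52) was below that of WSB (difference -4.94, SE 0.78, limma adjusted p = 0.0375), while the difference of -3.4 from B6 was not called (SE 0.82, adjusted p = 0.944). In the other 4 F1 crosses, scaled together with xWSB, the mean TM value of Derl3 was 9.18 in x129, 6.58 in xCAST, 6.86 in xNOD and 13.1 in xNZO, against 1.57 in xWSB. The mean of its xWSB controls was 1 and that of those crosses 0.259 to 0.535. Derl3 thus differed from Ccl20, whose mean TM value in xWSB (25.1) lay within the range of the other crosses (7.02 to 31.3).

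Promoters of these genes are shown to set the chemokines beside Derl3. The NF-kB consensus occurred in 4.35% of all promoters, in 9 of 29 of the chemokine and cytokine list (31%), in 12 of 32 of the NF-kB list (37.5%) and in none of the 10 induced genes. Capitals mark exact matches of the consensus and of the 4 UPR motifs.
Ccl20 (chr1:83116666-83116715, plus strand): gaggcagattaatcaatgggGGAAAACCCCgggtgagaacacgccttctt
Cxcl1 (chr5:90891029-90891204, plus strand): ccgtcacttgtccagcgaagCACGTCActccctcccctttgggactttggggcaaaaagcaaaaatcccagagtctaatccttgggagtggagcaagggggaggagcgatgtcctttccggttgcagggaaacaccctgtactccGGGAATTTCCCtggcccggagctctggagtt
Cxcl2 (chr5:90903782-90903832, plus strand): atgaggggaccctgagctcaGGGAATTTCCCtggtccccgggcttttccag
Derl3 (chr10:75893222-75893280, plus strand): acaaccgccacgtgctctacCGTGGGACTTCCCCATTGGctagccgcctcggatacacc
In Cxcl1 and in Cxcl2 the capitals GGGAATTTCCC hold 2 overlapping matches of the consensus, and Cxcl1 also holds UPRE on the opposite strand. In Derl3 a match to ERSE on the opposite strand spans an NF-kB match. The windows are reference B6 sequence and do not show the WSB allele.

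Against WSB alone 30 genes had a larger response in xWSB (0.248%) and 7 a smaller one (0.0579%). The 30 were chosen by a response above that of WSB, so a low WSB response is partly built into the choice. Of the 30, 27 were called lowered in WSB and 8 in B6, against 4.2% and 3.22% of all genes tested in those strains. Their median response was -0.13 in xWSB, -0.39 in B6 and -1.34 in WSB. Beside Inhba, Fgf2 and Nfkbiz they included Hipk2, a kinase, with -0.77 in xWSB and -2.52 in WSB (difference 1.76, limma adjusted p = 0.0375), the hedgehog receptor Ptch1 with -0.2 and -2.01 (1.81, limma adjusted p = 0.0273) and Utrn, the dystrophin relative utrophin, with 0.08 and -1.25 (1.33, limma adjusted p = 0.0375). The 7 smaller ones were Ccl20, Cxcl1, Cxcl5, Derl3, Mrps18b of the mitochondrial ribosome, Snhg12, with 1.23 against 2.4, and Dusp14, a phosphatase, with -0.31 against 1.06. Transcript length moved with these calls. Its median was 11725 bases in the 30 genes and 1538 in the 7, against 3498 in all genes compared. Across genes the response itself ran with length at a Spearman's rho of -0.42 in WSB, -0.14 in xWSB and -0.06 in B6. With the trend of each library with transcript length and GC content taken out, 2 larger and 5 smaller genes were left, and without the replicate block 0 and 3. Without xWSB replicate 1 the counts were 100 and 46, and without WSB control replicate 3 they were 91 and 11.

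The controls of xWSB were compared with those of the other 4 crosses, a comparison added after the values of Ccl20 and Cxcl1 had been seen. It used limma on the 14 control libraries of the F1 set, xWSB against the mean of the 4 other groups, at an adjusted p below 0.05 and 1.5 fold. In all, 834 genes were higher (6.52%) and 1364 lower (10.7%). Of the 39 chemokines and cytokines 23 were higher and 4 lower, with a median difference of 0.67 on the log2 scale, against -0.01 over all genes. For 15 every xWSB control lay above all other control libraries, against 5.73% of all genes. The same contrast for x129, xCAST, xNOD and xNZO called 4, 5, 2 and 2 chemokines and cytokines higher. These contrasts share libraries, and xWSB with its high values was part of the mean set against each, which lowers such counts.

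Saa3, an acute-phase protein, differed most. Its xWSB controls were 1037, 475.5 and 425.5, while the 11 control libraries of the other crosses lay between 0.0474 and 0.675 (log2 difference 10.52, SE 0.43, limma adjusted p = 3.82e-09). Il1a, the alarmin interleukin-1 alpha, stood at 39.1, 42 and 52.6, against 0.596 at most elsewhere (log2 difference 7.3, limma adjusted p = 4.05e-09). Il6 had 60.2, 45.8 and 57.7 against 1.03 to 6.92 (4.54), and Lcn2, an iron-trapping protein induced in inflammation, had a mean of 16.4 and a log2 difference of 5.91. Ccl20 lay 4.71 above, Cxcl16 3.58, Ccl2 2.63 and Cxcl1 2.59, and no control library of the other crosses reached the lowest xWSB value of any of these 4. The most raised of them were not called for TM by either fit. The response was 0.16 for Saa3, 0.23 for Il1a and 0.15 for Il6, with TM values of Il6 of 118.0, 54.1 and 34.4.

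Over all genes 6.52% were higher in xWSB controls and 10.7% lower, and the counts of each list here stand beside those shares. The NF-kB list had 14 of 39 genes higher and 2 lower. Among the higher ones were Icam1 (log2 difference 2.34) and Mmp13 (1.35), while Nfkb2 (0.22), Relb (0.42) and Sod2 (0.03) were not called. Of the 24 UPR sensors and transcription factors 5 were higher and none lower, with Ddit3 and Creb3l1 both at 1.14, and of 42 ATF4 and CHOP targets 10 were higher, among them Vldlr (0.9) and Sqstm1 (0.8), and 2 lower, Cth (-0.99) and Slc7a3 (-1.61). Of the 34 chaperones 1 was higher, with Hspa5 at 0.41 and below the 1.5 fold required, and of 30 ERAD genes 3, Derl3 by 1.19.

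The xWSB controls also carried less of the RNAs of dividing cells. Of 49 genes of DNA replication and mitosis 42 were lower and none higher, against 10.7% and 6.52% of all genes, with a median of -1.56. For 44 every xWSB control was below all 11 other control libraries, against 8.12% of all genes. Ccna2 (cyclin A2) stood at 7.57, 8.94 and 8.03, against 24.3 to 57.8 elsewhere (log2 difference -2.18, SE 0.08, limma adjusted p = 2.36e-09). The log2 difference was -2.02 for Mki67, -1.97 for Rrm2 of nucleotide synthesis and -1.91 for Mcm5 of the replicative helicase, and 0.12 for Ccnd1 (cyclin D1). The contrast for each of the other 4 crosses called 0 of these genes lower. There xWSB was part of the mean set against each cross. Its low values made such a call less likely, so this count is a weak comparison. Within xWSB the list responded little to TM, with a median of -0.15, 2 genes called higher (Cdc6 and Cdc45) and 2 lower (Cdc25b and Ccnd3) by the fit over 28 libraries. In bulk RNA fewer cells of a type and less RNA per cell cannot be told apart.

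Among other genes that set the xWSB controls apart, named after their values were seen, the matrix protein Dcn was higher by 3.43 and the plasminogen activator inhibitor Serpinb2 by 3.38, whereas the growth factor binding protein Igfbp5 (-3.42) and the cartilage collagen Col2a1 (-5.63) were lower. Col3a1, a general fibroblast collagen, differed by 0.14. Of the epithelial markers all 4 in the tables were lower, and of the fibroblast markers 3 of 13 were higher and none lower. Among myeloid (4), endothelial (6) and muscle (3) markers 1 each was lower and none higher. Xist was higher by 1.13, and no Y-linked gene was called. The Y-linked Ddx3y had controls of 29.8 to 36.5 in x129, 0.0503 and 0.116 in xCAST and 4.04 to 11.4 in xWSB. The pools thus differed in Y-linked RNA, and its part in the control comparison was not tested. Whether the level in controls had a part in the smaller chemokine response was not tested.

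**Figure D5:**
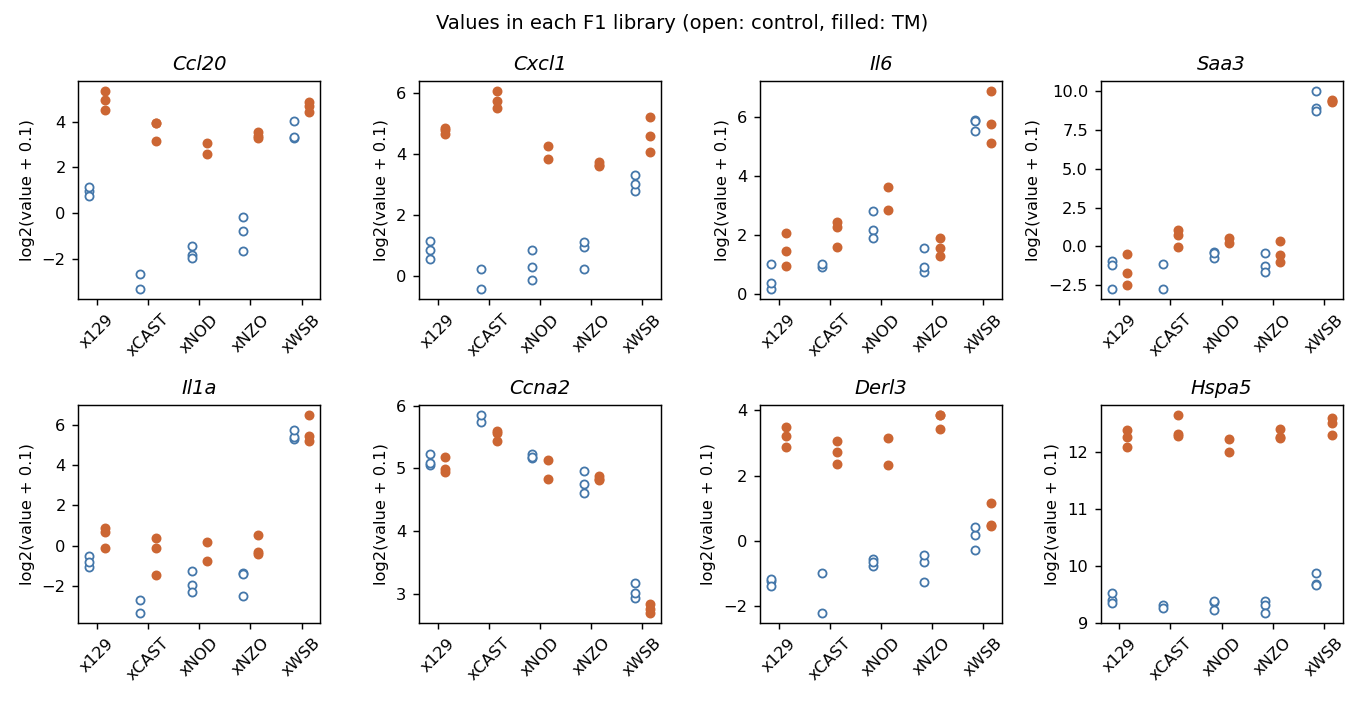
log2(value + 0.1) of 8 genes in each library of the 5 F1 crosses (open circles control, filled circles TM). The open circles of xWSB lie above those of every other cross for Ccl20, Cxcl1, Il6, Saa3 and Il1a and under them for Ccna2. For Hspa5 and Derl3 they also lie above, by less, and Derl3 is low with TM (mean 1.57).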

How the data were processed

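MEF RNA of 68 libraries was sequenced, of which 6 of xWSB, 9 of the parents and 22 of the other F1 crosses were used, and the rest in 1 alternative. The authors aligned reads with TopHat (version 1.4.1 per the labels), counted them per gene, scaled libraries with TMM in edgeR and left out libraries that lay away from their condition in a principal components analysis. The deposited values are named FPKM by the authors. Within a library, though, each is a whole number of equal steps whatever the gene, so the unit is signal, which the authors made as reads on a gene over scaled library size, with gene length left out. Tests planned for FPKM were kept. The F1 and founder sets were scaled separately. For xWSB, 3 lines without a gene, with 19.47 to 22.97% of the signal, were left out. Depth is given in the report, and intervals cover spread between libraries only. Among 9 parent libraries reads were recovered for 8. Of 13378 gene IDs 13197 were named.

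Members, gene lists and tests were chosen with earlier results of these data known. R 4.3.3 with limma 3.58.1 (eBayes with trend) tested log2(value + 0.1), so fold changes of low genes are understated, for genes with at least 0.5 in at least 2 libraries. The FDR was 1% and the fold 1.5 for responses, as in the study, and the FDR 5% for differences. Replicate numbers come from the labels. Same-numbered control and TM libraries of xWSB deviated together (r of 0.34, 0.31 and 0.18 over 10683 genes), so the number was a block, although control replicate 2 had a higher r with TM replicate 3 (0.41). The parents were fitted without one. edgeR 4.0.16 (quasi-likelihood) was run on recovered reads as an alternative. Scripts were tested on simulated data. Named genes were the list members, the genes the study names, the 15 largest calls and the 10 smallest adjusted p-values of each comparison. Transcript length and GC content came from GENCODE gene models, and promoters from RefSeq (GRCm38.p6). Python 3.11.15, numpy 2.4.6, pandas 2.3.3 and matplotlib 3.10.9 were used.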

Additional observations from a re-analysis of the deposited data

Results flagged for a closer look

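The responses of xWSB and its parents differed, by the limma test of the difference itself, for 15 genes that are list members, smaller in xWSB or among the 10 smallest adjusted p-values of a comparison. For Ccl20 the xWSB response was below B6 (a log2 difference of -4.44, adjusted p = 4.24e-04), below WSB (-4.62, adjusted p = 1.52e-04) and below the mid-parent (-4.53, adjusted p = 3.75e-05). For Cxcl1 the differences were -2.82 from B6 (adjusted p = 0.0137), -2.87 from WSB (adjusted p = 0.0066) and -2.85 from the mid-parent (adjusted p = 0.00157). Both genes were higher in xWSB controls than in controls of the other crosses, by 4.71 for Ccl20 and 2.59 for Cxcl1. The parental controls of Ccl20 rest on few reads.

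Against WSB alone the response was smaller in xWSB for Derl3 (-4.94, limma adjusted p = 0.0375), Dusp14 (-1.37, adjusted p = 0.0375) and Snhg12 (-1.17, adjusted p = 0.0375), and for Cxcl5 (-2.02, limma adjusted p = 0.0488) and Mrps18b (-0.91, adjusted p = 0.0375). It was larger for Ptch1 (1.81, limma adjusted p = 0.0273), Hipk2 (1.76, adjusted p = 0.0375), the unnamed gene ENSMUSG00000019769 (1.65, adjusted p = 0.0273), Utrn (1.33, adjusted p = 0.0375) and Atp2b4 (1.13, adjusted p = 0.0375), and among list members for Inhba (1.85, adjusted p = 0.0406), Fgf2 (1.6, adjusted p = 0.0403) and Nfkbiz (0.82, adjusted p = 0.0488). The values of Derl3 with TM were 2.14, 1.3 and 1.28, and its lowest WSB control was at 0. The 30 genes with larger responses had a median transcript length of 11725 bases, against 3498 in all genes compared. With the trend of each library with transcript length and GC content taken out, 2 genes were called larger and 5 smaller. The cause of the lost calls was not tested.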

How the results depend on the processing

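The count of xWSB calls, 10 genes induced and 0 lowered, depended on the fit and on the libraries in it. Without the replicate block it was 23 and 2, without a trend in the prior variance 0 induced, at an FDR of 5% 55 and 10, and in the fit over 28 F1 libraries 277 and 141. Leaving out 1 replicate number gave 40 to 1067 induced and 8 to 905 lowered, the highest without replicate 1, and leaving out 1 library without the block gave 4 to 23 (20 without TM replicate 1) and 0 to 2. With edgeR and no block it was 25 and 3, and with the length and GC trend removed 46 and 5 with the block and 96 and 14 without, all 3 chosen after seeing the data. Leaving out a library, B6 had 409 to 650 induced and 232 to 489 lowered, and WSB 103 to 560 and 105 to 694. Against the mid-parent 4 genes were smaller with a pseudocount of 1, 10 smaller and 1 larger over 68 libraries, and 1 to 5 smaller and 0 to 14 larger leaving out a library, the 14 without WSB control replicate 3. Ccl20 and Cxcl1 passed in each of these where they were tested. Without either B6 TM library Ccl20 fell under the filter. Against B6 1 gene was smaller without the block, 1 at an adjusted p below 0.01, 5 over 68 libraries, and 0 to 4 smaller and 0 to 1 larger leaving out a library, and Cxcl1 lost its call in 8 alternatives. Against WSB, where 30 were larger and 7 smaller, it was 0 and 3 without the block, 1 and 2 without the trend, 0 and 2 at an adjusted p below 0.01, 11 and 17 over 68 libraries, 2 larger with length and GC removed, and 0 to 100 and 1 to 46 leaving out a library (100 and 46 without xWSB replicate 1, 91 larger without WSB control replicate 3). B6 against WSB gave 2 to 49 larger without WSB TM replicate 2 or control replicate 3. The causes were not tested. Counts of the control comparison stayed within 1.5 times. No direction reversed in the alternatives run. Of 2034 single-gene values of the xWSB response 29 lost their call and 354 gained one. Depth limits genes near a value of 0.5.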
